A study of Mus musculus with 31 samples.

Results

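Il4i1 encodes a secreted L-amino-acid oxidase that is switched on by IL-4 in B cells, and the locus was followed here through chromatin immunoprecipitation and sequencing (ChIP-seq) of the cohesin loader NIPBL and the cohesin subunit Rad21. The locus was chosen by the way its splenic NIPBL signal widens after stimulation, so that this widening is described and not tested. Its members are all peaks of the 26 deposited peak lists that overlap a window of 60 kb on chromosome 7 (mm9). Il4i1 is placed near the middle of this window and over about 7 kb of it. This approximate position is part of the selection rule and was not taken from an mm9 annotation. RefSeq gives the gene a shorter length, 4522 bp. The window held 806 of the 17059729 peaks on the main chromosomes, and 92 of those 806 were among the 20000 strongest peaks of their own list.

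Cohesin is a ring-shaped complex that holds and extrudes loops of chromatin. NIPBL loads it onto DNA and keeps extrusion going, and it is often found at active promoters and enhancers, whereas Rad21, which closes the ring, accumulates where extrusion is halted, commonly at CTCF-bound sites. IL-4 acts on B cells through STAT6, and anti-CD40 acts through NF-kB, and Il4i1 is known as a gene that these signals induce.

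All cells were mouse B cells deficient for AID, the deaminase that starts class switch recombination, and the study asked about loop extrusion in class switching. Splenic mature B cells of C57BL/6 mice were either unstimulated or cultured for 48 h with anti-CD40 and IL-4. CH12F3, a single mouse B lymphoma line named CH12F3NCdel in the titles, was either unstimulated or cultured for 24 h with anti-CD40, IL-4 and TGF-β. A derivative named i3CBEs was profiled only after stimulation, for 24 h with anti-CD40, IL-4 and TGF-β as in CH12F3. NIPBL was profiled in 3 unstimulated and 3 stimulated splenic libraries and in 2 unstimulated and 2 stimulated CH12F3 libraries. Rad21 was profiled in 3 unstimulated and 3 stimulated splenic libraries, 3 unstimulated and 4 stimulated CH12F3 libraries, and 3 i3CBEs libraries. Nothing says whether replicates came from separate animals or cultures, so the p-values cover only sample-to-sample spread, part of which may be technical.

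The lists hold no read counts, so sequencing depth is unknown and list length stands in for it only roughly. For NIPBL the lists ranged from 890499 to 1332862 peaks. For Rad21 they ranged from 95464 to 271662 in CH12F3, from 42659 to 97738 in i3CBEs and from 149409 to 1236385 in spleen, where 1 unstimulated and 2 stimulated lists exceeded 1000000. Marker genes of B cells cannot be read from peak lists and were not checked. The Y chromosome held 0.0103% to 0.0434% of the peaks of each splenic list and at most 0.00568% of those of each CH12F3 or i3CBEs list. Stimulated splenic Rad21 replicate 2 had the lowest Y share of the splenic lists (0.0103%) and their highest X share (5.01%), and results that rest on it are given with and without it.

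The stretch just before Il4i1 is shown because STAT6 and NF-kB are the factors through which the stimuli act. Where it lies relative to the widened NIPBL peaks was not determined. RefSeq places Il4i1 (gene 14204) on the plus strand, and the 250 bases before its start are chr7:44836038-44836287 in GRCm38.p6, a different build from the mm9 of the peaks. Capitals mark matches to searched motifs, read on both strands.

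Il4i1, 250 bases before the start: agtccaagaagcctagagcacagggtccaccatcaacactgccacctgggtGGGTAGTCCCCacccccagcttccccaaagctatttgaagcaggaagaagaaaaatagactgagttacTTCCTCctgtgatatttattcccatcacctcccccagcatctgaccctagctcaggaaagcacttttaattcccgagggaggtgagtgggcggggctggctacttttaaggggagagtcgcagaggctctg

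The first capital run, from base 52 counted from the 5′ end, holds 2 overlapping matches to the NF-kB motif GGGNNNNNCC. The second, from base 120, is TTCCTC, the reverse complement of the PU.1 core GAGGAA, PU.1 being a transcription factor of B and myeloid cells. Neither the STAT6 motif TTCNNNNGAA nor TTCNNNGAA, the motif of other STAT factors, matched in this stretch. Of 32851 RefSeq promoters of the same length, 45.8% held the NF-kB motif, 23.3% the PU.1 core, 5.85% the STAT6 motif and 7.02% the other STAT motif. GC content was 53.2%, against a median of 52.4%. These matches are descriptions of letters and not of binding.

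In RefSeq order the genes before Il4i1 are Vrk3, Gm29791, Atf5, a stress-response transcription factor gene, Nup62, which encodes a nuclear pore protein, and Il4i1b. Il4i1b is a readthrough of Nup62 into Il4i1 and overlaps it. Genes after Il4i1 include Tbc1d17, Akt1s1, which encodes a substrate of the kinase AKT within mTORC1, and Mir707. Peaks were not assigned to these neighbours, because gene positions in mm9 were not used here. Other genes that IL-4 induces were not analysed here for the same reason.

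**Figure D1:**
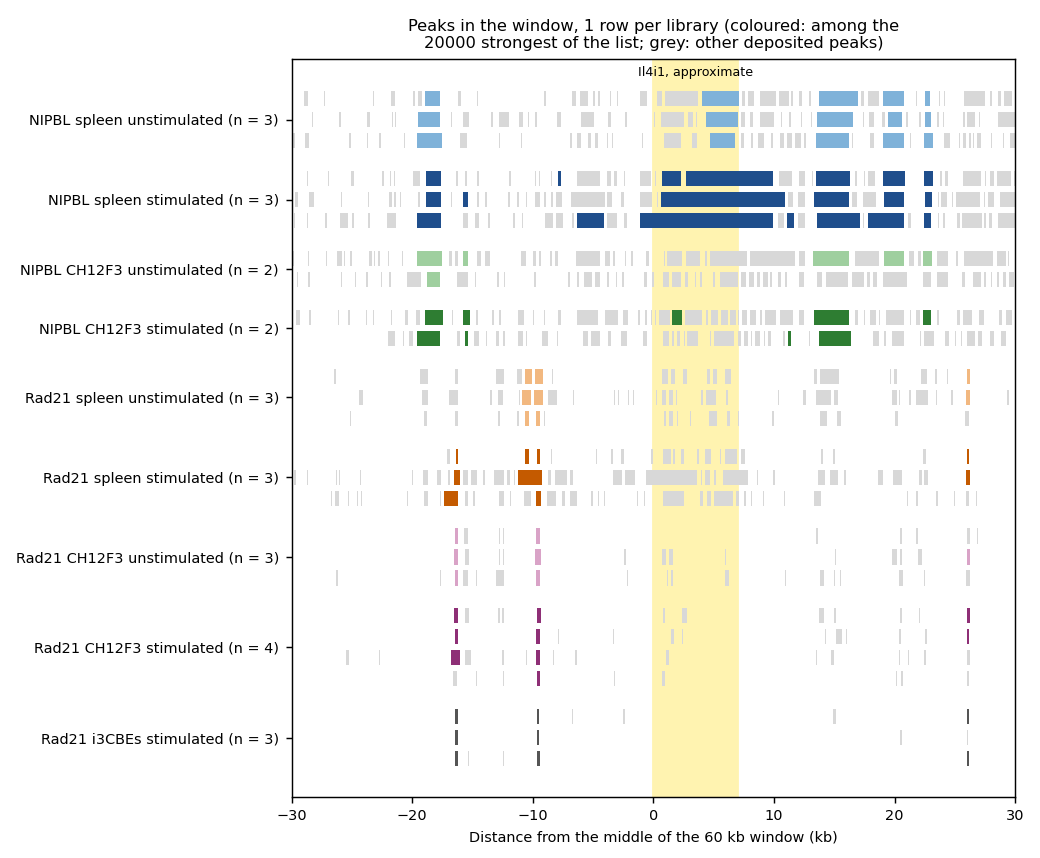
Every deposited peak in the 60 kb window, drawn by its distance in kb from the middle of the window (x axis), with 1 row per library grouped by antibody, cell type and stimulation (y axis). Coloured bars are among the 20000 strongest peaks of their list and grey bars are the other deposited peaks. The 3 stimulated splenic NIPBL rows carry the widest bars, over the yellow band that marks the approximate position of Il4i1. The Rad21 rows carry coloured bars only away from this band.

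The widest NIPBL peak over Il4i1 in splenic B cells was broader after stimulation than before it. The widest peak overlapping the Il4i1 bin, the 10 kb of chromosome 7 that begin at the middle of the window, spanned 52092670-52099917, 52090634-52100882 and 52088865-52099926 in the 3 stimulated libraries. Their widths were 7248, 10249 and 11062 bp. In the 3 unstimulated libraries it spanned 52094042-52097112, 52094375-52096989 and 52094684-52096781, with widths of 3071, 2615 and 2098 bp. Every stimulated peak was wider than every unstimulated one, and the means were 9520 ± 2009 bp and 2595 ± 487 bp (SD, n = 3 each). The bases shared by the 3 unstimulated peaks, 2098 bp at 52094684-52096781, lie inside the 7248 bp shared by the 3 stimulated peaks, 52092670-52099917, so the stimulated peaks extended to both sides of the resting one. Stimulated replicate 1 also had a separate peak of 1581 bp in the bin, at 52090726-52092306, among its strongest 20000. Counting all deposited peaks, the bin held 3, 2 and 1 after stimulation and 6, 9 and 11 before.

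After stimulation the widest peaks over Il4i1 were among the widest NIPBL peaks of their lists. They ranked 12, 6 and 8 by width in the stimulated lists, and those before stimulation ranked 294, 354 and 807 in the unstimulated lists. By -log10 p, the peak caller's significance, they ranked 323, 392 and 498 after stimulation and 6847, 6421 and 4288 before it. Lists differ in length and a rank in one list cannot be subtracted from a rank in another. The authors' fold enrichment, a value of the peak within its own list, was 16.4, 13.6 and 16.2 in the stimulated libraries and 12.3, 12.6 and 13.2 in the unstimulated ones.

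**Figure D2:**
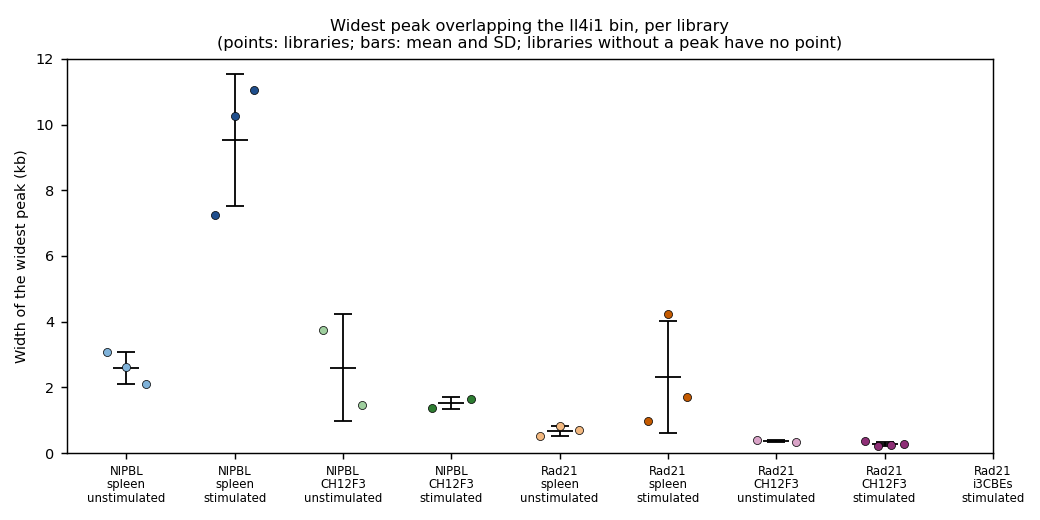
Width in kb of the widest peak overlapping the Il4i1 bin (y axis) in each library, by group (x axis), with points for libraries and bars for the mean and SD; libraries without a peak there have no point. Stimulated splenic NIPBL peaks reach 7248 to 11062 bp, and all other groups stay at 4223 bp or less.

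To set libraries side by side, the percent of the 10 kb Il4i1 bin covered by each list's 20000 strongest peaks was computed. Splenic NIPBL covered 88.3%, 93.7% and 99.3% of it after stimulation and 30.7%, 26.2% and 21.0% before, means of 93.7% ± 5.49 and 25.9% ± 4.87 (SD, n = 3 each). The groups did not overlap, as the choice of the locus fixed. With all deposited peaks the stimulated values were 88.8%, 94.2% and 99.3% and the unstimulated ones 81.3%, 68.5% and 52.6%. The groups were still apart, but the resting bin was largely filled by weaker peaks, and the difference of means shrank from 67.8 to 26.6 points.

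At the 4 NIPBL sites other than Il4i1 that were among the strongest peaks of all 6 splenic lists, widths before and after stimulation overlapped. Merging the strongest peaks of the 10 NIPBL lists gave 10 sites, 7 of them in at least 2 lists. At 52074215-52074795, a shared site outside these 4, splenic widths did not overlap. They were 169, 391 and 342 bp in stimulated spleen. In unstimulated replicates 2 and 3 they were 466 and 604 bp, and unstimulated replicate 1 had no peak there. The site nearest after Il4i1 among those in most lists, 52103262-52107174, was in the strongest peaks of 9 of 10 lists. Its peaks were 2815, 2881 and 3610 bp wide in stimulated and 3231, 3029 and 2700 bp wide in unstimulated spleen, and these ranges overlap. Fold enrichment there was 8.59, 7.17 and 7.01 after stimulation and 13.5, 15.1 and 12.8 before it, so the stimulated lists had the lower values, the reverse of the order at Il4i1.

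The next site, 52107800-52110894, showed the same order of fold enrichment, with 7.54, 8.36 and 8.78 in stimulated and 12.2, 12.2 and 10.3 in unstimulated spleen. At the site before Il4i1 that all 10 lists shared, 52070371-52072558, the stimulated values of 8.86, 7.34 and 11.3 overlapped the unstimulated values of 19.4, 10.2 and 9.79. The far site 52112363-52113165 also overlapped, with 8.42, 9.23 and 10.3 against 9.99, 9.81 and 8.86. All these belong to the contrast by which the locus was chosen and carry no test.

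Toward the start of the window the broad NIPBL peak reached into the 10 kb bin just before that of Il4i1 in stimulated replicate 3, and in the other 2 stimulated libraries it began within the Il4i1 bin. In that preceding bin the strongest peaks covered 3.04%, 0% and 33.1% in stimulated replicates 1, 2 and 3 and 0% in all 3 unstimulated libraries. The value of replicate 1 is a separate peak of 304 bp, and replicate 3 also had a separate peak of 2178 bp there. When all peaks counted, that bin was covered to 40.6%, 57.7% and 58.5% after stimulation and to 12.6%, 20.5% and 24.3% before. Over the whole window the strongest splenic NIPBL peaks covered 30.9% ± 6.41 after stimulation and 15.7% ± 0.645 before (SD, n = 3 each). The flanking bin before the window held none of the strongest peaks in any of the 26 lists, and the flanking bin after it held none in the 6 splenic NIPBL lists.

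**Figure D3:**
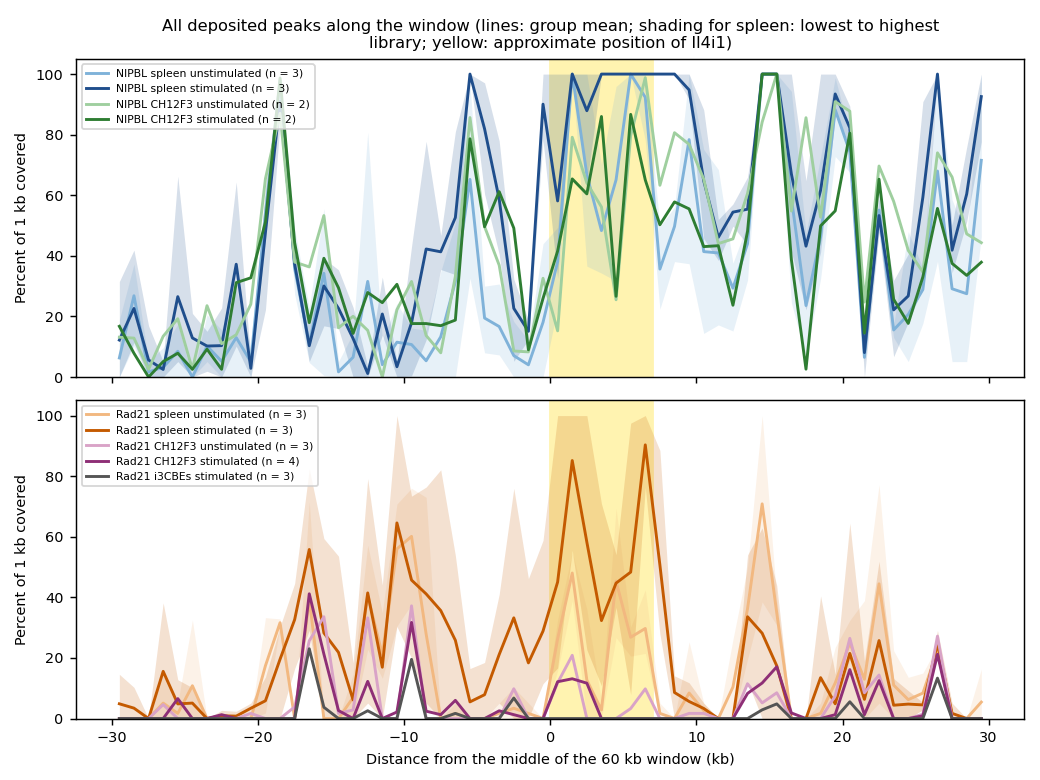
Percent of each 1 kb covered by all deposited peaks (y axis) by distance in kb from the middle of the window (x axis), with NIPBL above and Rad21 below. Lines are group means and shading is the lowest to highest library of the splenic groups. Stimulated splenic NIPBL stays at or near 100% across the second part of the yellow Il4i1 band and beyond it, and stimulated splenic Rad21 is raised over the same band but varies widely between libraries.

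CH12F3 cells did not show the broad NIPBL peak over Il4i1. Among the strongest peaks, stimulated CH12F3 covered 7.93% and 0% of the Il4i1 bin and unstimulated CH12F3 covered 0% and 0%. The value above 0 came from 1 peak of 793 bp in stimulated replicate 1, at 52091547-52092339, with a fold enrichment of 8.36. With 1 library of 4 above 0 the bin was below the minimum of 2 covered libraries and was not tested in this setting. The lowest -log10 p kept among the strongest 20000 was 13.8 and 12.0 in stimulated and 11.0 and 15.5 in unstimulated CH12F3. It was 9.94, 8.49 and 11.3 in stimulated and 13.1, 17.7 and 13.8 in unstimulated spleen. In the CH12F3 lists at 0% the bin's peak with the highest fold enrichment had a -log10 p of 10.1, 10.1 and 12.9. The part of these cut-offs in the low CH12F3 coverage was not tested.

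Weaker NIPBL peaks were nevertheless present there in the line. When all peaks of the lists counted, coverage of the bin was 67.8% and 51.3% in stimulated CH12F3, a mean of 59.5% ± 11.6 (SD, n = 2), and 76.9% and 51.0% in unstimulated CH12F3, a mean of 63.9% ± 18.3 (SD, n = 2). The groups overlapped, and the difference of -4.39 points (SE 13.3) did not pass limma's test (Benjamini-Hochberg adjusted p = 1). Within the 7248 bp shared by the stimulated splenic peaks, coverage by all deposited peaks was 67.5% and 56.7% in stimulated and 87.1% and 51.1% in unstimulated CH12F3, against 50.5% to 82.1% in unstimulated spleen. These ranges overlap, and no test compared the cell types. In CH12F3 this coverage was made up of 4 to 10 peaks per list and in unstimulated spleen of 5 to 7. In stimulated spleen it is 1 peak by definition, because the stretch was set as the bases those peaks share.

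Elsewhere in the window NIPBL in CH12F3 did not change detectably with stimulation. Of the 12315 bins tested genome-wide for this contrast, limma called 0, or 0%, while 1288 had an unadjusted p under 0.05. The smallest adjusted p of the 3 window bins tested was 0.983. Over the whole window the strongest peaks covered 9.56% ± 1.72 after stimulation and 7.43% ± 7.98 before (SD, n = 2 each), a difference with p = 1 in a two-sided exact permutation test. With 2 against 2 libraries that test cannot go below 0.3333. The sign of this difference turned with the choice of peaks, to -5.50 points with all deposited peaks.

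A short NIPBL site at 52074215-52074795 had its highest ranks in the line. In stimulated CH12F3 its peaks ranked 635 and 299 by -log10 p, with fold enrichments of 13.4 and 13.2. In unstimulated CH12F3 they ranked 10951 and 22889, with 7.73 and 9.02. In spleen 1 of 6 lists, stimulated replicate 2, had a peak there among its strongest 20000, and the fold enrichment of the 5 splenic lists with any peak there ranged from 3.60 to 6.24. This site was singled out after its values were seen.

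**Figure D4:**
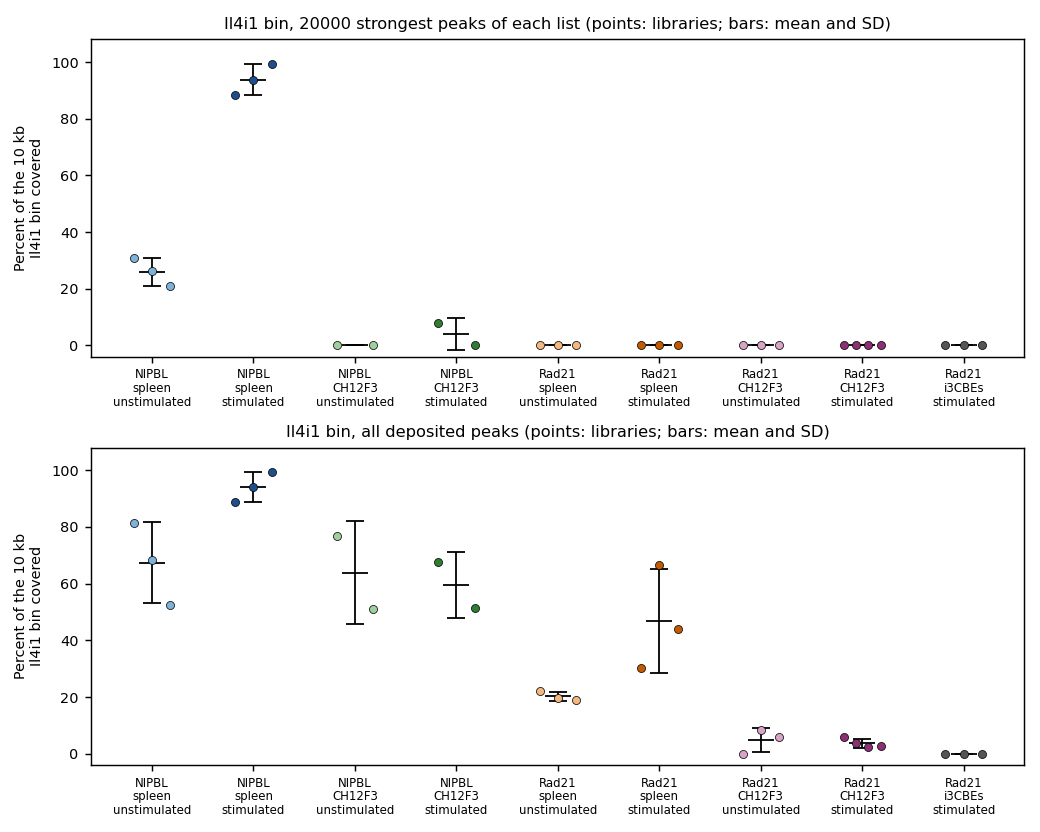
Percent of the 10 kb Il4i1 bin covered (y axis) in each library by group (x axis), for the 20000 strongest peaks of each list (top) and for all deposited peaks (bottom), with points for libraries and bars for the mean and SD. With the strongest peaks only splenic NIPBL and 1 CH12F3 NIPBL library are above 0; with all peaks stimulated splenic Rad21 lies between 30.3% and 66.6% and unstimulated between 18.8% and 22.0%.

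Rad21 had no strong peak over Il4i1 in any cell type. All 16 Rad21 lists were at 0% of the Il4i1 bin with the 20000 strongest peaks, so no contrast could be tested there in that setting. The broad splenic NIPBL peak therefore had no counterpart among strong Rad21 peaks. The Rad21 peak with the highest fold enrichment in this bin ranked between 23691 and 181390 by -log10 p in the 12 lists that had one, with the best rank in unstimulated splenic replicate 3.

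Weak Rad21 peaks covered more of the bin in stimulated than in unstimulated spleen, but the difference did not pass the test. With all deposited peaks the stimulated libraries covered 30.3%, 66.6% and 43.9%, and the unstimulated ones 22.0%, 19.7% and 18.8%. The means were 46.9% ± 18.3 and 20.2% ± 1.66 (SD, n = 3 each). Each stimulated library was above each unstimulated one, and this held for 1.16% of the 253798 bins tested in either direction. The difference of 26.7 points (SE 17.8) had a limma adjusted p of 1, and limma called 6 bins, 0.00236%, in this setting. With all 16 Rad21 libraries in 1 fit the adjusted p was 0.293. Without stimulated replicate 2, the library that stands apart on X and Y, the difference was 16.9 points.

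List length is uneven in the splenic Rad21 groups. In stimulated spleen the coverage of 30.3%, 66.6% and 43.9% came from lists of 149409, 1166191 and 1236385 peaks. In unstimulated spleen the coverage of 22.0%, 19.7% and 18.8% came from lists of 292078, 1177389 and 152152 peaks. In both groups the shortest list had the lowest coverage, and the longest list did not have the highest. Divided by the percent of the genome that the same list covers, the bin's coverage was 36.1, 10.2 and 7.37 times the genome's in stimulated spleen and 8.46, 3.26 and 18.4 times in unstimulated spleen. On this scale the groups overlap. Among all bins of its list the Il4i1 bin ranked 120, 179 and 411 in stimulated and 5754, 12333 and 1497 in unstimulated spleen. A fit with a term for lists of over 1000000 peaks gave 22.7 points, and the part of list length in the result was not tested beyond these values.

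The Rad21 coverage lay partly in the stretch under the broad NIPBL peak. In the 7248 bp shared by the stimulated splenic NIPBL peaks, all deposited Rad21 peaks covered 28.7%, 53.9% and 37.0% in stimulated spleen and 15.4%, 15.8% and 17.0% in unstimulated spleen. They covered at most 4.72% in any CH12F3 library and 0% in the 3 i3CBEs libraries. The widest Rad21 peak of the Il4i1 bin was 975, 4223 and 1705 bp in stimulated and 521, 817 and 702 bp in unstimulated spleen, so the ranges were apart here too. The widest of these came from stimulated replicate 2.

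Rad21 over Il4i1 was higher in stimulated spleen than in stimulated CH12F3 when all deposited peaks were used. CH12F3 covered 5.91%, 3.70%, 2.42% and 2.75% of the bin, below each of the 3 splenic values. The difference of 43.2 points (SE 6.81) passed limma's test with an adjusted p of 0.00165, and it was past the threshold without each of the 7 libraries compared in turn. That fit pooled the spread of all 16 Rad21 libraries. The SD in this bin was 18.3 in stimulated spleen, 1.57 in stimulated CH12F3 and 0 in i3CBEs, so this SE does not describe the spread of stimulated spleen. In the fit of splenic Rad21 alone the stimulation difference had an SE of 17.8. In this setting 17.5% of bins were called and 12.1% had groups that do not overlap. The share called depends on single libraries: it was 0.0357% without splenic replicate 2, 0.0266% without splenic replicate 3, 0.298% to 0.842% without any 1 CH12F3 library and 77.1% without splenic replicate 1. The lists held 149409 to 1236385 peaks in stimulated spleen and 95464 to 271662 in stimulated CH12F3, and the part of list length in this difference was not tested. Relative to the genome's coverage the CH12F3 values were 5.39, 3.15, 1.29 and 3.54 times, also below the splenic ones. Cell type, culture time and the addition of TGF-β cannot be told apart in this contrast.

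The effect of stimulation on Rad21 in the Il4i1 bin was not shown to differ between spleen and CH12F3. Unstimulated CH12F3 covered 0%, 8.46% and 5.78% with all deposited peaks, and its difference from stimulated CH12F3 was -1.05 points (limma adjusted p = 0.891). The interaction term was 27.8 points with an adjusted p of 0.907, in a setting where 0.000394% of bins were called. It had an adjusted p of 0.00362 without stimulated splenic replicate 1, the shortest of the stimulated splenic lists, in a fit that called 20.8% of bins. With the strongest peaks 5.89% of bins were called for this term, and none of them was in the window. Unstimulated spleen and unstimulated CH12F3 differed by 15.4 points, which did not pass the test (limma adjusted p = 0.480). The i3CBEs lists had no deposited peak in the bin in any of the 3 libraries.

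Strong Rad21 peaks in the window fell at 3 sites, 2 before Il4i1 and 1 after it. The site at 52078813-52080855, before Il4i1, was the most constant, with a peak among the strongest 20000 in 16 of 16 lists. The site at 52072606-52073934 was among the strongest in 12 of 16 lists, and the one at 52115928-52116274 in 9 of 16. Each of the 3 sites had some deposited peak in all 16 lists.

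The constant site had its highest fold enrichment in resting spleen. Its strongest peak there had fold enrichments of 24.7, 22.1 and 13.3 in the 3 libraries and ranked 2510, 2754 and 1695. In stimulated spleen the values were 5.26, 7.91 and 7.13 and the ranks 13316, 17989 and 13762. The group values do not overlap, with means of 20.1 ± 5.98 and 6.77 ± 1.37 (SD, n = 3 each). Fold enrichment was 11.9, 7.84 and 10.5 in unstimulated CH12F3, 11.0, 6.28, 6.74 and 6.70 in stimulated CH12F3 and 6.46, 5.37 and 6.07 in i3CBEs. These are the caller's values within each list and were not tested. Coverage of the 10 kb bin before that of Il4i1, which holds this peak, did not differ by limma between stimulated and unstimulated spleen (-1.16 points, adjusted p = 0.879).

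**Figure D5:**
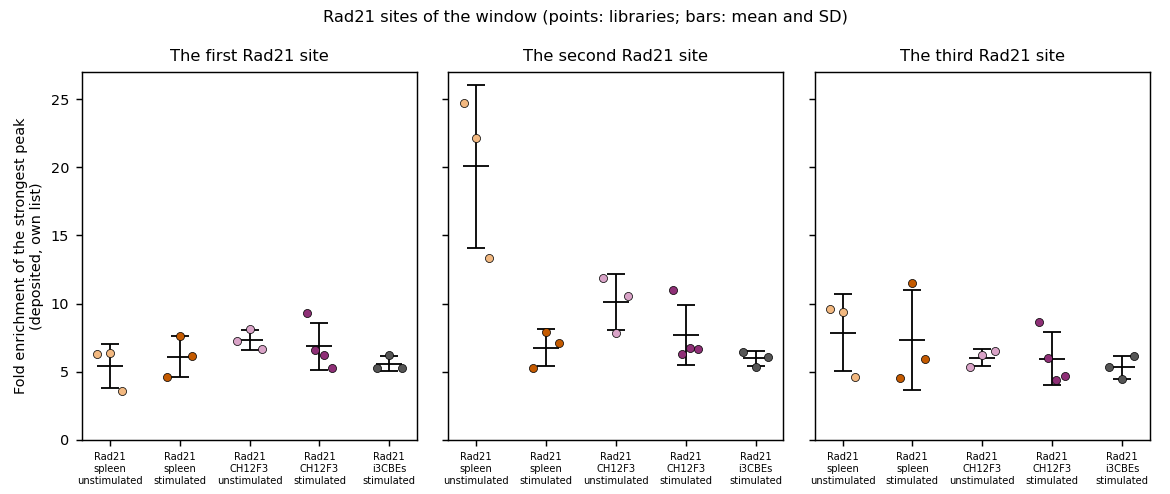
Authors' fold enrichment (y axis) of the strongest deposited Rad21 peak over each of the 3 Rad21 sites, by group (x axis), with points for libraries and bars for the mean and SD. At the second site the 3 unstimulated splenic libraries lie between 13.3 and 24.7, above all other libraries; at the other sites the stimulated and unstimulated splenic libraries overlap.

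A second splenic Rad21 peak lay within the merged coordinates of the constant site, beside the peak that all lists share. At 52079138-52079903, a stretch of 766 bp, 6 of 6 splenic lists had a deposited peak, 5 of them among their strongest 20000. Of the 10 CH12F3 and i3CBEs lists, 1 had a peak there and 0 had one among the strongest. Stimulated splenic replicate 2 joined both into 1 peak of 1922 bp, and this peak extends the merged site over the stretch. This stretch was singled out after its values were seen.

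The first Rad21 site was among the strongest peaks of all 3 stimulated and of 0 of 3 unstimulated splenic lists. The resting peaks were present but ranked 26377, 31662 and 60325, beyond the strongest 20000, while the stimulated ones ranked 18377, 19972 and 17352, just within. Fold enrichment was 6.31, 6.37 and 3.57 in unstimulated and 4.58, 7.59 and 6.17 in stimulated spleen, and these overlap. The 10 kb bin that holds it, the second of the 6 in the window, also holds the neighbouring splenic peak at 52079138-52079903. All of the resting coverage of this bin came from that neighbouring peak, 526, 708 and 305 bp wide, and none from the first site. After stimulation the first site gave 166, 421 and 1219 bp, and the neighbour gave a further 304 bp in replicate 1, the part of the joined peak within the bin in replicate 2, and 0 in replicate 3. The bin was covered to 11.0% ± 5.79 after stimulation and 5.13% ± 2.02 before (SD, n = 3 each), and the difference of 5.86 points (SE 3.25) did not pass the test (limma adjusted p = 0.369). Genome-wide 637 of 22603 bins, 2.82%, were called in this contrast, and 0 of them in the window. That number was 0 without stimulated replicate 1, 2 or 3 (where 3714, 3485 and 3456 bins had unadjusted p-values below 0.05). Leaving out resting replicate 1 gave 289 bins and leaving out resting replicate 3 gave 1806.

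Between stimulated spleen and stimulated CH12F3 the same bin, with both peaks in it, differed by 7.88 points (SE 2.14), 11.0% against 3.12% ± 2.91 (SD, n = 4), with a limma adjusted p of 0.0348, in a contrast where 8.24% of bins were called. Of the 3 window bins tested this was the 1 called. Its fit also pooled the spread of all 16 Rad21 libraries, with an SD of 5.79 in stimulated spleen and 0.280 in i3CBEs. The groups overlapped, and the call was lost without splenic replicate 2 (5.33 points, adjusted p = 0.150) or replicate 3 (7.28 points, adjusted p = 0.105), and without CH12F3 replicate 1, 2 or 4 (adjusted p = 0.0726, 0.0782 and 0.0889). Unstimulated, spleen exceeded CH12F3 in this bin by 2.56 points, with groups that do not overlap, as in 30.6% of bins, and the difference did not pass the test (limma adjusted p = 0.459) where 27% of bins did.

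Within the CH12F3 lineage no Rad21 difference in the window passed a test. With the strongest peaks, stimulated and unstimulated CH12F3 differed by 0.548 points or less in each of the 3 window bins tested, and none passed limma's test, against 0.0262% of bins, or 6, called genome-wide. With the replicate number as a block 0 bins were called, and 1565 had an unadjusted p under 0.05. The i3CBEs libraries were in this fit and shared the block numbers. With all deposited peaks the last bin of the window differed by -2.59 points, stimulated minus unstimulated CH12F3 (limma unadjusted p = 0.0478, adjusted p = 0.768). The i3CBEs lists were different from stimulated CH12F3 by -1.22 points in the bin of the constant site. Their groups do not overlap there, as in 23.9% of bins, and the difference did not pass the test (limma adjusted p = 0.281, with 0.411% of bins called). With all deposited peaks i3CBEs covered 1.40% ± 0.330 of the whole window (SD, n = 3) and stimulated CH12F3 4.36% ± 1.31 (SD, n = 4). Each i3CBEs library was below each CH12F3 library, and the difference of -2.97 points had the smallest p that the exact permutation test can give here, 0.05714 (adjusted 0.171). The same lists covered 0.385% to 0.537% of the genome in i3CBEs and 0.778% to 1.87% in stimulated CH12F3. The part of this in the window difference was not tested.

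Over the whole window no Rad21 comparison passed the two-sided exact permutation test, which was run on 6 comparisons including NIPBL in CH12F3. The strongest Rad21 peaks covered 2.88% ± 1.45 of the window in stimulated and 2.13% ± 1.02 in unstimulated spleen (SD, n = 3 each; exact permutation p = 0.5, adjusted 0.75). In CH12F3 the values were 1.24% ± 0.544 (SD, n = 4) and 1.19% ± 0.441 (SD, n = 3; exact permutation p = 0.914, adjusted 1), and in i3CBEs 0.903% ± 0.226 (SD, n = 3; exact permutation p = 0.343 against stimulated CH12F3, adjusted 0.686). Spleen exceeded CH12F3 by 0.941 points unstimulated and 1.64 points stimulated (exact permutation p = 0.2 and 0.171, both adjusted 0.6). With all deposited peaks spleen exceeded CH12F3 by 8.66 points unstimulated (exact permutation p = 0.1, adjusted 0.2) and by 16.6 points stimulated (exact permutation p = 0.05714, adjusted 0.171), both the smallest p these group sizes allow. Unstimulated lists covered 1.02% to 6.06% of the genome in spleen and 1.02% to 1.62% in CH12F3. Stimulated lists covered 0.839% to 6.54% and 0.778% to 1.87%. The part of this in the window differences was not tested. The smallest p possible is 0.1 for 3 against 3 and 0.05714 for 3 against 4 libraries. In spleen the sign turned with the 10000 strongest peaks, to -0.955 points with p = 0.1 in the exact permutation test, and without stimulated replicate 2 the difference was -0.000556 points.

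The pattern of the Il4i1 bin over the 26 libraries, high in stimulated splenic NIPBL, low in resting spleen and near 0 elsewhere, was shared by other bins. Of 37415 bins compared at more than 1 Mb from the window, 323 had a Pearson r above 0.9 with it. The 5 most alike were chr13:96660001-96670000 (r = 0.982), chr19:5570001-5580000 (0.976), chr1:90150001-90160000 (0.975), chr17:22450001-22460000 (0.975) and chr10:7670001-7680000 (0.971). As the Il4i1 bin was at 0% in all 16 Rad21 lists, choosing by likeness favours bins low in Rad21. All 5 were at 0% in every Rad21 group. They were filled far less than Il4i1, with stimulated splenic NIPBL means of 8.61% to 17.5%, except the chr1 bin at 61.8% ± 1.89 against 5.13% ± 8.89 before stimulation (SD, n = 3 each). These libraries share the contrast by which Il4i1 was chosen, so the likeness is a description.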

How the data were processed

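The submitters' processing notes name Bowtie2, MACS2 and mm9, with no versions named. Each of the 26 lists is 1 library. For every peak the authors deposited a score, the fold enrichment (a ratio) and the -log10 p and -log10 q; the score is 10 times the -log10 q. Peak names show a control for the Rad21 lists and for replicate 2 of NIPBL in CH12F3 only. The 5 inputs were not used. Group names come from titles, which disagree with 1 field that calls the CH12F3 and i3CBEs Rad21 cells splenic.

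The window is chr7:52060001-52120000 (mm9), with its 10 kb Il4i1 bin at 52090001-52100000. The 20000 peaks with the highest -log10 p per list were kept and the percent of each 10 kb bin that they cover was computed. Where at least 2 libraries of a fit covered a bin, it was tested by limma 3.58.1 in R 4.3.3, using the mean-variance trend, with Benjamini-Hochberg adjustment over all bins and a threshold of 0.05. Spleen against CH12F3 and the interaction used 1 fit of all 16 Rad21 libraries. CH12F3 and i3CBEs Rad21 libraries shared 1 fit. Window coverage was compared with exact permutation tests in scipy 1.17.1 under Python 3.11.15, tables were handled with pandas 2.3.3 and numpy 2.4.6, and figures were drawn with matplotlib 3.10.9. The limma step was also tested on simulated data with known changes. Depth is unknown, so no counting interval is given. No 2 lists shared more than 1.1% of peak starts.

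The locus, its window and the lists were chosen with earlier results of these data known. Named were the 6 window bins and 2 flanks, merged sites in at least 2 lists, each list's widest and strongest peak, the 5 most similar bins, up to 5 RefSeq neighbours on each side (not all are reported here) and 4 motifs. Same-numbered CH12F3 Rad21 libraries deviated together (r = 0.423, 0.652 and 0.376 with the strongest peaks). Libraries with different numbers also reached r = 0.607, and stimulated replicate 1 deviated more with unstimulated replicate 3 (r = 0.438). The main fits and the permutation tests were unpaired, and pairing by number entered only the replicate block. For Rad21 in CH12F3 that block also took in the i3CBEs libraries by their numbers. Alternatives covered the number of peaks, a -log10 q minimum of 5, lists cut to equal covered length, joined peaks, shifted bins, bin filters, a replicate block, a list-length term and left-out libraries.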

Additional observations from a re-analysis of the deposited data

Results flagged for a closer look

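In the first 10 kb bin of the window all deposited Rad21 peaks covered 3.14% in stimulated CH12F3 replicate 3 and 0% in the other 3 libraries of that group. This library stood alone against otherwise equal values and its list, with 271662 peaks, was the longest of the group. It was the 1 value of 11 checked in this group that lay far from the others. The check sets the largest gap against the range. Where all the rest are 0, any value above 0 is flagged, so no rate by chance is given.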

How the results depend on the processing

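Splenic NIPBL over Il4i1 was higher after stimulation under all alternatives, by 26.6 points with all deposited peaks, 46.0 with -log10 q of 5 or more, 86.7 with lists of equal covered length, 44.7 with bins moved by 5 kb and 65.0 to 70.5 without each library in turn. NIPBL in CH12F3 turned from 3.97 to -4.39 points with all deposited peaks and -4.11 with the q minimum, and over the window from 2.13 to -3.48, -1.89, -5.50 and -4.27 with 10000, 40000 and all peaks and the q minimum; single libraries left out gave -17.3 to 8.56 over Il4i1 with all peaks and -3.52 to 7.77 over the window.

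Rad21 over Il4i1, 0 with the strongest peaks, became, with 40000 peaks, all peaks and the q minimum, 0.71, 26.7 and -0.89 points in spleen, -0.05, 15.4 and 2.08 between unstimulated cell types, 2.61, 43.2 and 1.19 between stimulated ones, and 2.66, 27.8 and -0.89 for the interaction; with 40000 and all peaks, -1.95 and -1.05 in CH12F3 and -0.528 and -3.70 in i3CBEs. Of these, 43.2 passed the test. Left-out libraries gave with all peaks 16.9 to 35.0, 13.1 to 17.3, 33.4 to 51.5, 17.9 to 36.1, -3.43 to 0.805 and -4.12 to -2.96 in the same order, and 36.1, without stimulated splenic replicate 1, passed the test. With all peaks the replicate block gave 26.7 points in spleen, -0.737 for Rad21 and -4.39 for NIPBL in CH12F3, and changed no call over Il4i1. Numbers did not pair splenic Rad21 libraries (r = -0.119, 0.0267 and 0.00698 with the strongest peaks, and -0.395, 0.376 and -0.187 with all peaks). One fit of all Rad21 libraries gave 26.7 and -1.05, and the list-length term 22.7.

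Over the window Rad21 in spleen turned to -0.955, -0.0672, -0.402 and -0.844 with 10000 and 40000 peaks, the q minimum and equal length, and CH12F3 to -0.161, -0.167, -0.0758 and -0.161, and -0.868 with all peaks; left-out libraries gave -0.000556 to 1.45 and -0.0904 to 0.311. With equal length i3CBEs turned to 0.903. The bin of the first site turned to -0.00667 in spleen with 40000 peaks and ranged from 3.32 to 9.01 without single libraries. The causes were not tested. Alternatives with all deposited peaks and left-out libraries or block together were added after seeing the data. Depth is unknown, and peaks under the callers' threshold are not in the lists.

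The number of bins called for Rad21 in spleen, 637, was 0 with 10000 and 40000 peaks, the q minimum, equal length, no bin filter and the list-length term (1472 to 5369 bins at an unadjusted p under 0.05), and 3860 with all Rad21 libraries in 1 fit. Between stimulated cell types 2363 became 86 with the q minimum, 1367 with equal length and 3551 without splenic replicate 1. Between unstimulated ones 7758 became 4387 with 10000 peaks, 3234 with equal length and 2576 with all peaks. For the interaction 1691 became 595, 132 and 99 with 10000 peaks, the q minimum and equal length and 3011 without unstimulated splenic replicate 3. For i3CBEs 94 became 417 with the q minimum, 1470 with equal length, 56 with all peaks and 6 to 280 without single libraries, and for CH12F3 stimulation 6 became 0 to 195 over all alternatives.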
